A study of Mus musculus with 4 samples.

Results

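Accessible regions that lie close together in long runs, here called dense chains, were described in the chromatin of mouse natural killer (NK) cells. Consecutive regions of a chromosome were joined when the gap between them was at most 5000 bp, and chains with 10 or more regions were kept. This gave 162 chains holding 1950 of the 91266 accessible regions of the series, or 2.14%. Positions alone chose the chains, and the lists of changed regions were not used to choose them.

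The cells were splenic NK cells of wild-type C57BL/6 mice, cultured for 72 h in a high dose (HD) or a low dose (LD) of interleukin-15 (IL-15), with 2 samples at each dose. The assay was ATAC-seq, which marks open DNA by where a transposase can insert adapters, with about 75000 cells per biological replicate. The authors deposited 1 list of regions for the whole series and their own lists of regions named up (3845) and down (1275). The concentrations of both doses and the dose that served as reference are not given in the sources used here, so up and down are not assigned to a dose. No value per sample was analysed, depth is unknown, and no value below carries a replicate error.

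NK cells are innate lymphocytes that kill infected or malignant cells with granule proteases and perforin and that depend on IL-15, which signals through the IL-2/15 receptor chains, the kinases JAK1 and JAK3, and STAT5. Genes that define a cell type often lie in long stretches of closely spaced regulatory elements, whereas genes used in all cells are often served by an accessible promoter and few other elements. In NK cells, transcription factors such as T-bet, RUNX3 and ETS1 are known to act at such elements.

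Chains held a median of 11 regions (interquartile range 10 to 13, highest 23) and spanned a median of 25.6 kb (22.1 to 30.5 kb, from 11.2 to 65 kb). Together they spanned 4.37 Mb, of which the regions themselves covered 935 kb. The median gap inside chains was 1560 bp, against 6906 bp over all neighbouring regions of a chromosome. Members had a median width of 399 bp, close to the 400 bp of regions outside dense chains, and their upper quartile was 612 bp against 654 bp. The chains lay on 19 chromosomes, with 16 on chromosome 2 and 14 on chromosome 6. The X chromosome had 0 chains among its 2100 regions and chromosome 3 had 2 among 4637.

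Most chains lay over genes. Of the 1950 members, 69.9% overlapped a protein-coding gene, against 60.9% of regions outside dense chains. A smaller share sat near a gene boundary, meaning either end of a protein-coding gene. Members at most 1000 bp from one were 12.3% (95% Wilson interval 10.9 to 13.8%), against 17.2% of other regions (17 to 17.5%). A total of 44 chains were contained in the span of at least 1 protein-coding gene, 104 contained at least 1 gene boundary and 16 overlapped no protein-coding gene. Some chains, such as that at Gzma, were both contained in a gene and contained a boundary. These intervals, and all below, cover counting error only and treat regions as independent, which neighbours are not.

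The chains with most regions were at genes of several kinds. The longest by number had 23 regions over 56.2 kb at Chsy1, which encodes a chondroitin sulfate synthase. It was followed by 21 regions over 65 kb at Galnt2, an enzyme of mucin-type glycosylation, and by 21 regions over 51.4 kb spanning Tbkbp1 and Tbx21. Tbx21 encodes T-bet, a transcription factor that NK cells require to mature. Chains of 20 regions lay at Acot7, an acyl-CoA thioesterase, and around Mknk2, a kinase of the translation factor eIF4E. None of the 105 regions of these 5 chains was in either list, which allows a share of up to 2.86% for each, with 3 counts as the limit of a count of 0.

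Sequence could be read for gene starts. The windows printed here are the 250 bases before a start, taken from RefSeq (GRCm38.p6) and written 5′ to 3′ on the gene's strand. The first belongs to Gm35189, a long non-coding RNA gene and the only gene in the promoter table whose window a listed member overlapped. The others were chosen after their values were seen. Gzma, Irf8, Gimap6, Gadd45g and Litaf belong to chains with listed regions, and Tbx21 and Jak1 to chains without. Each window overlaps a member region, which covers 118 of the 250 bases for Gm35189, 122 for Tbx21, 185 for Gimap6, 248 for Gzma and all of the others. Capitals mark matches to the motifs whose letters follow the sequences.

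Gm35189, chr12:77055078-77055327, minus strand: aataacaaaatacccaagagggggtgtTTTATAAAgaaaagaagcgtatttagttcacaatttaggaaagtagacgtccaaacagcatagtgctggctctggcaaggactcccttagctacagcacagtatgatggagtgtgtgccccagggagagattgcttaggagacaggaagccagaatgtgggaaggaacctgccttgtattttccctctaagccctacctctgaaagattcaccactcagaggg
Gzma, chr13:113100982-113101231, minus strand: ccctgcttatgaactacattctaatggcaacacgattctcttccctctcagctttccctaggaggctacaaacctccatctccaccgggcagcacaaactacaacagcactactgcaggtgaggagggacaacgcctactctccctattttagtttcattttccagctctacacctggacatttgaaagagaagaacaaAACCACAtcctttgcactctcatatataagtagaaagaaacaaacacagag
Irf8, chr8:120736108-120736357, plus strand: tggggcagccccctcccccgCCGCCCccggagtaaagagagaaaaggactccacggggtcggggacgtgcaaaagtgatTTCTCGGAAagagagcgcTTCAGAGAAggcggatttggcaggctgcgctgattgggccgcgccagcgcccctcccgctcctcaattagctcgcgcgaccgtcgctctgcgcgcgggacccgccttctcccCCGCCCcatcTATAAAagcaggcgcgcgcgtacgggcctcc
Gimap6, chr6:48708245-48708494, minus strand: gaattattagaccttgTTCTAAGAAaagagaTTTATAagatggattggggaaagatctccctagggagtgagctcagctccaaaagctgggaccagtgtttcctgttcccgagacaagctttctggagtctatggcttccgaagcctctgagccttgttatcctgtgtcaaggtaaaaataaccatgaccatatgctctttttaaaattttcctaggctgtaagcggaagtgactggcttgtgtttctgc
Gadd45g, chr13:51846425-51846674, plus strand: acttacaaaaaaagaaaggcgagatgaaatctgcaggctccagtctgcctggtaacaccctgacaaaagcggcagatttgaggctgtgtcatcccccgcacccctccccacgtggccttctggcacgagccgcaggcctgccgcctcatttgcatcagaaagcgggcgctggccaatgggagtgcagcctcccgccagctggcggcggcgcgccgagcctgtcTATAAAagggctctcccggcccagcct
Litaf, chr16:10993122-10993371, minus strand: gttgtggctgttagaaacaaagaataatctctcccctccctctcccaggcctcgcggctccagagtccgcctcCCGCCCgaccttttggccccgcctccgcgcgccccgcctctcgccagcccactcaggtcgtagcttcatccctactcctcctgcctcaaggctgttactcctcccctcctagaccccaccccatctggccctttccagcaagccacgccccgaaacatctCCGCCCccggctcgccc
Tbx21, chr11:97115332-97115581, minus strand: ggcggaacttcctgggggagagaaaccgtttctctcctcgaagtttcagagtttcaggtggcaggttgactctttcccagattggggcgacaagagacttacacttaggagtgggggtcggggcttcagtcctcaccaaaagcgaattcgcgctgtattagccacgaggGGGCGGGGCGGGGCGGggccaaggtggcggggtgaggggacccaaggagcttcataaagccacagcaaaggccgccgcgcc
Jak1, chr4:101265224-101265473, minus strand: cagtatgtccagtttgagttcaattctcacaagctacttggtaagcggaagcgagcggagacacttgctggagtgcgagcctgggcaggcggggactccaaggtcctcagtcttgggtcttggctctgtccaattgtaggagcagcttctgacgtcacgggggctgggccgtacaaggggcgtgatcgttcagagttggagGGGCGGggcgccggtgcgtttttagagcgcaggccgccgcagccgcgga

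A match is a run of letters and not a shown binding site. All motifs were searched on both strands, and partial overlaps between them were allowed. The Gm35189 window had 2 overlapping TATA matches, in opposite orientations, both in its part outside the up region. The Gzma window had 1 match, to RUNX on the opposite strand at bases 200 to 206. Irf8 had 2 STAT matches, at bases 80 to 88 and 98 to 106, besides 2 GC boxes and a TATA match at bases 220 to 225. Gimap6 had 1 STAT and 1 TATA match, both outside the member. Gadd45g had 1 TATA match, Litaf 2 GC boxes, Tbx21 3 GC boxes that share bases, and Jak1 1 GC box. Apart from those of Gm35189 and Gimap6, all matches lay inside the member.

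Among windows of protein-coding genes, 122 overlapped a member of a dense chain, 11286 another accessible region and 9855 none. Matches were counted over the whole window, also where a region covered only a part of it. Some genes have several starts, and their windows can overlap. The STAT motif, TTCNNNGAA, was found in 9.84% of the 122 (interval 5.72 to 16.4%), in 5.37% of windows at other regions and in 6.58% of all 21263 windows. The ETS motif, CCGGAAG, was found in 9.02% of the 122 (5.11 to 15.4%), against 14.7% at other regions and 8.98% of all. The TATA motif, TATAAA, was found in 10.7% (6.33 to 17.4%), against 5.61% at other regions and 11.6% of all. For TATA matches the intervals at members and at other regions (5.2 to 6.05%) did not overlap, and for STAT matches (4.97 to 5.8%) and ETS matches (14.1 to 15.4%) they did.

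The remaining motifs are given in the same order, at members, at other regions and over all windows. The RUNX motif, TGTGGTT, was found in 5.74%, 3.07% and 3.82%. The AP-1 motif, TGANTCA, was found in 5.74%, 4.08% and 6.13%. The GC box, GGGCGG, was found in 52.5% (43.7 to 61.1%), 62.3% (61.4 to 63.2%) and 42.6%, a lower share at members with intervals that did not overlap. The T-box motif, AGGTGTGA, was found in 0, 0.682% and 0.997%. For RUNX, AP-1 and T-box matches the intervals at members and at other regions overlapped. The median GC content was 60.8% both at members and at other regions, and 48.8% in windows at no region.

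Dense chains held fewer up regions and more down regions than the remainder of the genome. In the authors' deposited up list were 28 of the 1950 members, or 1.44% (0.995 to 2.07%), against 4.21% of all 91266 regions and 4.27% of regions outside dense chains (4.14 to 4.41%). In the down list were 41 members, or 2.10% (1.55 to 2.84%), against 1.40% of all regions and 1.38% outside (1.31 to 1.46%). In either list were 69 members (3.54%), against 5.61% of all regions. Up regions were thus 40.6% of the listed members (29.8 to 52.4%) and 75.6% of the listed regions elsewhere (74.4 to 76.7%). For each of the 4 quantities, the intervals inside and outside did not overlap, and no test was made because regions are not replicates.

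From single regions to chains of 10 to 14 regions, the share in the up list fell and the share in the down list rose. Single regions, with no neighbour within 5000 bp, were up in 4.63% (4.41 to 4.86%) and down in 0.986% (0.886 to 1.1%). In chains of 2 to 4 regions the shares were 4.35% up and 1.49% down, and in chains of 5 to 9 regions 2.94% up (2.65 to 3.26%) and 2.12% down (1.87 to 2.4%). Members of chains with 10 to 14 regions were up in 1.63% (1.12 to 2.38%) and down in 2.26% (1.64 to 3.11%). In chains of 15 to 19 regions 2 of 252 were up (0.794%, 0.218 to 2.85%) and 5 were down (1.98%, 0.85 to 4.56%), and in chains of 20 or more both were 0 of 105. The up share was therefore lower in each larger class, while the down share did not rise further beyond 14 regions, where few regions were counted. At the limit of the rule the order was uneven. Chains of exactly 10 regions were up in 16 and down in 11 of 650 members, and chains of exactly 9 regions, just outside, were up in 12 and down in 25 of 909.

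**Figure D1:**
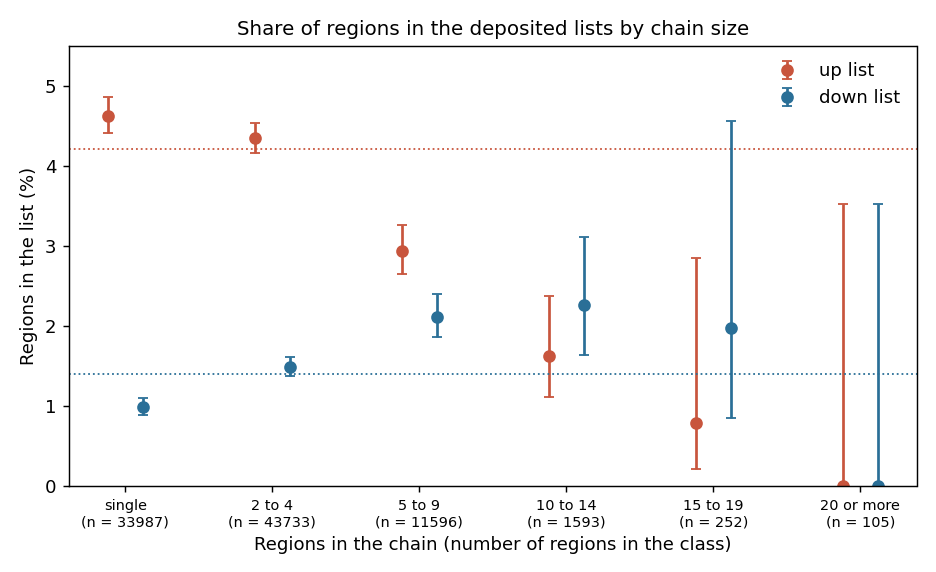
Share of regions in the authors' up and down lists (%), by the number of regions in the chain to which they belong. Points are shares, bars 95% Wilson intervals, and dotted lines the shares of all regions (4.21% up, 1.40% down). The up share falls from 4.63% in single regions to 1.63% in chains of 10 to 14, and the down share rises from 0.986% to 2.26%. Both are lower in chains of 15 to 19 and 0 of 105 in chains of 20 or more, where the bars are wide.

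Region width, on which listing depended in the series as a whole, was compared class by class. Where other regions were most often up, from 327 to 589 bp, 3.03%, 2.04% and 1.66% of members were up in successive classes, against 8.41%, 8.35% and 8.99% outside. Of 10 width classes, the up interval of members lay below that of other regions in the 5 from 327 to 973 bp and overlapped it in the others. The down interval of members lay above that of other regions in 3 classes, 150 to 197, 198 to 234 and 327 to 399 bp, and overlapped it in the other 7. In the narrowest class 4 of 197 members were down (2.03%, 0.792 to 5.1%), against 14 of 9100 outside (0.154%, 0.0917 to 0.258%). Among these 4 were neighbouring regions of 160 and 167 bp in the Gzma chain described below. With members weighted to the widths of all regions, 1.31% were up and 2.02% down. The same weighting outside gave 4.28% and 1.38%.

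**Figure D2:**
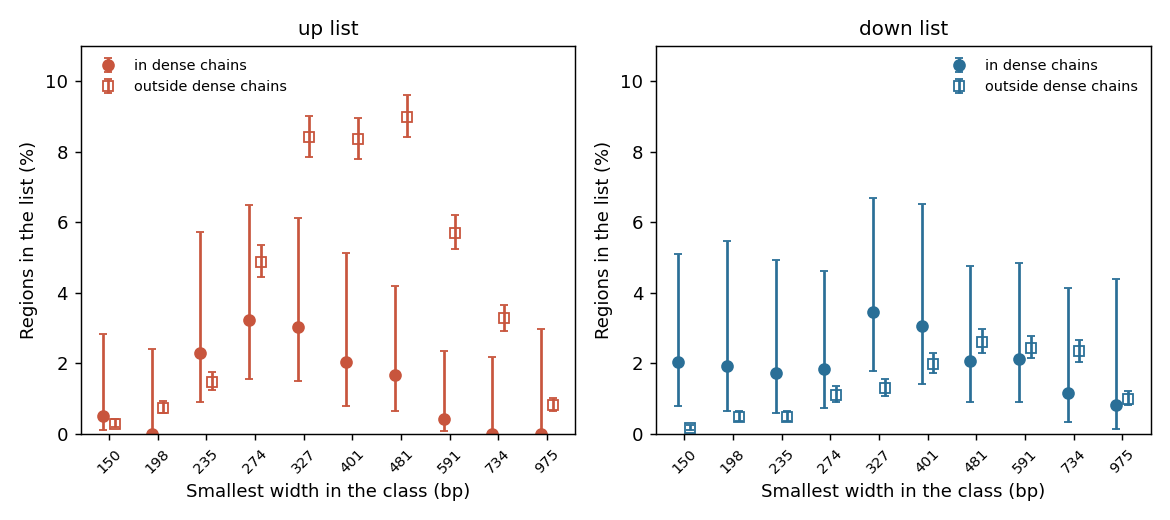
Share of regions in the up list (left) and down list (right) in 10 width classes of near-equal size, with the smallest width of each class on the x axis (bp). Filled circles are members of dense chains, open squares regions outside them, bars 95% Wilson intervals. Up shares of members stay at or below 3.21% where other regions reach 8.99%.

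Up members had a median width of 344 bp (183 to 682 bp) and down members of 399 bp (159 to 1112 bp). Outside dense chains these medians were 454 and 542 bp. Of the 28 up members 15 overlapped a gene (53.6%), and of the 41 down members 32 did (78.0%), against 69.9% of all members. Outside dense chains 49.5% of up and 59.0% of down regions did. Gene boundaries held 3 up (10.7%) and 4 down members (9.76%), near the 12.3% of all members. None of the 114 members that overlapped the 250 bases before a protein-coding gene's start was listed, which allows a share of up to 2.63%. Outside dense chains 0.935% of 9300 such regions were listed, so a lower share in chains could not have been detected. Of the listed members, 6 up and 2 down regions were the first of their chain and 0 up and 3 down were the last. First and last members were listed in 3.40% and interior members in 3.57%.

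At least 1 listed region was present in 55 of the 162 chains, or 34.0% (27.1 to 41.5%). The share was 24.2% of the 1946 chains of 5 to 9 regions, which have fewer regions that could be listed. A single listed region was present in 42 chains, up in 17 and down in 25. Another 13 chains had more, and 12 of these (92.3%, 66.7 to 98.6%) had all of them in the same list, 5 up and 7 down. In chains of 5 to 9 regions the corresponding share was 90 of 95 (94.7%), and in chains of 2 to 4 regions 256 of 262 (97.7%). The 3 intervals overlapped (88.3 to 97.7% and 95.1 to 98.9% in the shorter chains). Of the 14 pairs of consecutive listed members, 3 were direct neighbours and the remainder had unlisted members between them. The 2 regions of a pair were in the same list in 13 of these 14 (92.9%, 68.5 to 98.7%). In listed pairs from different chains at most 50 kb apart, 863 of 1004 were (86.0%, 83.7 to 88%), within the interval of the dense pairs.

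Of the 13 chains with several listed regions, 12 are described below. By the rule for naming, only the Gzma chain qualified on its count of 3, and the Klrb1c and Tcf7 chains through their genes. The other 9 were chosen after their values were seen.

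The Gzma chain had the most listed regions. Gzma encodes granzyme A, a protease of cytotoxic granules. The chain had 10 regions over 18.1 kb (chr13:113087227-113105335, mm10), all of it within the span of Cdc20b, which Gzma overlaps. Down regions were the fifth, the sixth and the seventh, at chr13:113096515-113096750, chr13:113098588-113098747 and chr13:113099691-113099857. These regions were 236, 160 and 167 bp wide and lay within Gzma, 2691, 2234 and 1124 bp from the nearest gene boundary. The region of 392 bp over the Gzma start window printed above was in neither list. The 3 down regions therefore lay side by side inside the gene, and were followed by an unlisted region at its start. Within 50 kb on either side lay 14 more regions, of which 2 were down and 0 up.

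Klrb1c encodes NK1.1, the receptor by which NK cells of C57BL/6 mice are identified. Its chain (chr6:128762619-128779200) had 10 regions, and the last 2 were down. They were 1112 bp (chr6:128777331-128778442) and 460 bp wide (chr6:128778741-128779200). The first ended 43 bp outside the gene and the second lay inside it. Of the 22 further regions within 50 kb, 0 were listed.

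The Gimap6 chain (chr6:48675759-48713131) had 18 regions over Gimap4, Gimap6 and Gimap9, members of a GTPase family important for lymphocyte survival. Its down regions, of 405 and 553 bp, were the twelfth and fourteenth, and the second overlapped a gene boundary. The Sla chain lay inside both Sla and Tg, which overlap. Sla encodes SLAP, an adaptor that dampens antigen receptor signalling. The second and the fifth of its 13 regions were down.

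The chain nearest to Prss2 had 13 regions (chr6:41532215-41563808) and overlapped no protein-coding gene. Gene segments of the T cell receptor beta locus lie there, among them Trbc1 and Trbc2, which encode the constant parts of the receptor chain. There the second and the fifth regions, of 229 and 236 bp, were down, 9.77 and 18.4 kb from Prss2. The Lnpep chain had 2 of 14 regions down, of 648 and 276 bp, inside the gene of a membrane aminopeptidase. At Fam107b, 2 of 14 regions of a chain that reached into the gene were down, of 569 and 342 bp. A second chain of 13 regions inside Fam107b had none listed.

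Chains with up regions were fewer. At Gadd45g, which encodes a stress-response protein, 2 of 13 regions were up, 8.92 and 4.87 kb outside the gene and 404 and 251 bp wide. The member over its start, of 677 bp, was in neither list. The histone chain named after H1f2 overlapped 9 protein-coding histone genes within 25.9 kb, and 2 of its 10 regions were up, 2482 bp from H1f2 and 463 bp from H4c1. Histone genes of this cluster are transcribed during DNA replication.

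The Litaf chain had 2 of 10 regions up, of 381 and 406 bp, 8.61 and 14.3 kb outside the gene, which encodes a protein of late endosomes. The chain of Cmip, an adaptor protein, lay inside that gene. It had 2 of 10 regions up, of 343 and 412 bp, 67.8 and 75.2 kb from a gene boundary.

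Tcf7 was the single chain with both directions. It encodes TCF-1, a transcription factor of early lymphocytes and of less differentiated NK cells. The chain (chr11:52260941-52284554) had 13 regions over 23.6 kb. The first, of 320 bp (chr11:52260941-52261260), was up. The fourth, of 804 bp (chr11:52265558-52266361), was down. Both lay within Tcf7, with 2 unlisted regions between them, and the 9 members that follow were in neither list.

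**Figure D3:**
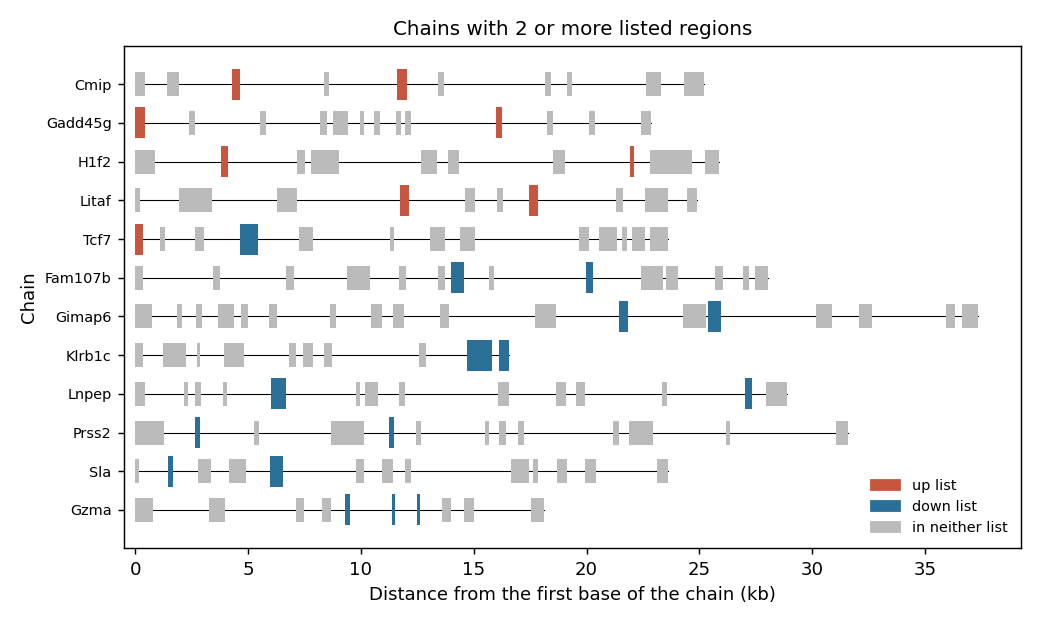
Maps of 12 of the 13 chains with 2 or more listed regions, drawn to scale by distance from the first base of each chain (kb). Bars are regions (orange up, blue down, grey in neither list), and rows are named by the gene nearest to most regions. In 11 rows all coloured bars have the same colour, and in the Tcf7 row 1 is up and 1 down.

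Of the 42 chains with a single listed region, those named here were picked with their values in view. No gene group was counted among them. Down regions lay at Csk, the kinase that restrains SRC-family kinases, at Ptprj, a receptor phosphatase, and at Pik3r1, a regulatory subunit of PI3-kinase. Others lay at Klhl6, at Dusp5, a phosphatase of ERK, and 10.9 kb from Tyrobp, which encodes the adaptor DAP12 of NK activating receptors. Coro2a had 1 down region in each of its 2 chains of 13 and 14 regions. Up regions included 1 at Dok2, an adaptor that limits receptor signalling, 163 bp from a gene boundary, and 1 at Pfkfb3, a regulator of glycolysis. Further up regions lay within Itpr1, an IP3-gated calcium channel of the endoplasmic reticulum, 22.8 kb from a gene boundary, and 1.81 kb from Lgals3, which encodes galectin-3. An up region of 249 bp at chr12:77054947-77055195 overlapped the Gm35189 window printed above, 92.6 kb from Max, the nearest protein-coding gene.

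Listed regions around the chains were counted within 50 kb on either side. Near the 22 chains with up regions only, 12 of 233 flanking regions were up and 2 down. Near the 32 chains with down regions only, 4 of 456 were up and 15 down. Near the 107 chains with none, 25 of 1390 were up and 33 down. Flanks of neighbouring chains can share regions and hold members of another chain. With each region counted once and members left out, 40 of 1815 flanking regions were up (2.2%, 1.62 to 2.99%) and 39 were down (2.15%, 1.58 to 2.92%). Regions farther from any dense chain were up in 4.32% (4.18 to 4.45%) and down in 1.37% (1.29 to 1.44%). A lower up share and a higher down share than elsewhere were thus also found beside the chains, with intervals that overlapped those of the members.

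Genes of NK cell function were frequent among the genes nearest to members. The lists comprised 131 genes of NK receptors, IL-15 signalling, transcription factors, effectors and homing. Of the 130 that were nearest to any region, 22 (16.9%) were nearest to a member, against 222 of 16392 protein-coding genes (1.35%). By regions, 231 of 2394 assigned to these genes (9.65%) were members, against 2.14% of all. Genes of the lists had more regions each, 2394 for 130 genes against 91266 for 16392. Both shares can depend on the number of regions per gene, and genes with equal numbers were not compared. The lists were also chosen with earlier results of these data known. Among genes with a region, transcription factors gave 8 of 42 with 126 members, homing and adhesion 5 of 20 with 35, and NK receptors 4 of 25 with 33. Effectors gave 3 of 18 genes with 17 members, and IL-15 signalling 2 of 25 with 20. Among markers of cell types, 4 of 8 NK markers (Klrb1c, Klrd1, Tbx21 and Gzma) had members, amounting to 34 of their 109 regions. None of the 18 regions assigned to T cell markers, 25 to B cell markers or 15 to myeloid markers was a member, which allows shares of up to 16.7%, 12% and 20%. These sets are too small to show a share below the 2.14% of all regions. Of the markers, Cd4, Cd8a, Cd79a, Cd79b, Ms4a1 and Lyz2 had 0 regions assigned.

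There were 23 chains at these genes with 276 regions, of which 2 were up and 9 down (3.99% listed, 2.24 to 6.99%), close to the 3.54% of all members. A total of 16 of the 23 chains had no listed region (69.6%, 49.1 to 84.4%), against 107 of all 162 (66%). Of the 22 genes nearest to a member, 5 were nearest to a listed one (22.7%, 10.1 to 43.4%), against 55 of 222 over all protein-coding genes (24.8%). All 5 had a down region, and Tcf7 also had an up region. In these shares, which join both lists, the chains at NK cell genes were near the level of dense chains as a whole. By direction, 2 of the 276 regions were up and 9 down, against 28 and 41 of all 1950 members. No interval was computed for this split.

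Among transcription factors, Runx3 had 2 chains with 24 members and Fli1 had 2 with 24. Ets1 had 10 members, Nfil3, a factor needed to form NK cells, 12, and Zbtb16, which encodes PLZF, 11. At Tbx21 10 of its 11 regions were members. All of these members were in neither list, although 3 up and 2 down regions were assigned to Ets1 and 1 down region each to Runx3 and Fli1 outside dense chains. Irf8, a factor of myeloid cells that NK cells also use, had 2 chains with 22 members. The member of 644 bp at chr8:120737186-120737829, 828 bp from the nearest gene boundary, was down. The neighbouring member of 1063 bp, over the Irf8 window printed above, was not listed.

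Among genes of the IL-15 pathway, Jak1 had 13 of its 40 regions in a chain and none of these listed, while 1 up and 2 down regions lay elsewhere. Pim1, a kinase gene induced by STAT5, had 7 of 11 regions in a chain, and 0 of the 11 were listed. Il2rb, Il2rg, Jak3, Stat5a and Stat5b were nearest to no member.

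Among receptor genes, Klrd1 (CD94) had all of its 8 regions in a chain shared with Klre1, and Klrg1 had 9 of 17 in a chain. None of these was listed. The Klrg1 chain held 1 down region, of 204 bp, that was nearest to M6pr. Among effectors, Ccl5, which encodes a chemokine stored by NK cells, had 9 of 10 regions in a chain and Tnf had both of its regions in one around Ltb, all in neither list.

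Among homing genes, Ccr7, a receptor for lymph node entry, had 12 of 19 regions in a chain. The last of them, of 549 bp and 15.6 kb from the gene, was down (chr11:99170710-99171258). Ccr2, a receptor for inflammatory chemokines, had 8 of 13 regions in a chain, and Selplg, the gene of the selectin ligand PSGL-1, had 8 of 12. None of these 16 was listed. Cx3cr1 had 1 unlisted member in a chain named after Xirp1, whose up region lay 629 bp from Xirp1.

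**Figure D4:**
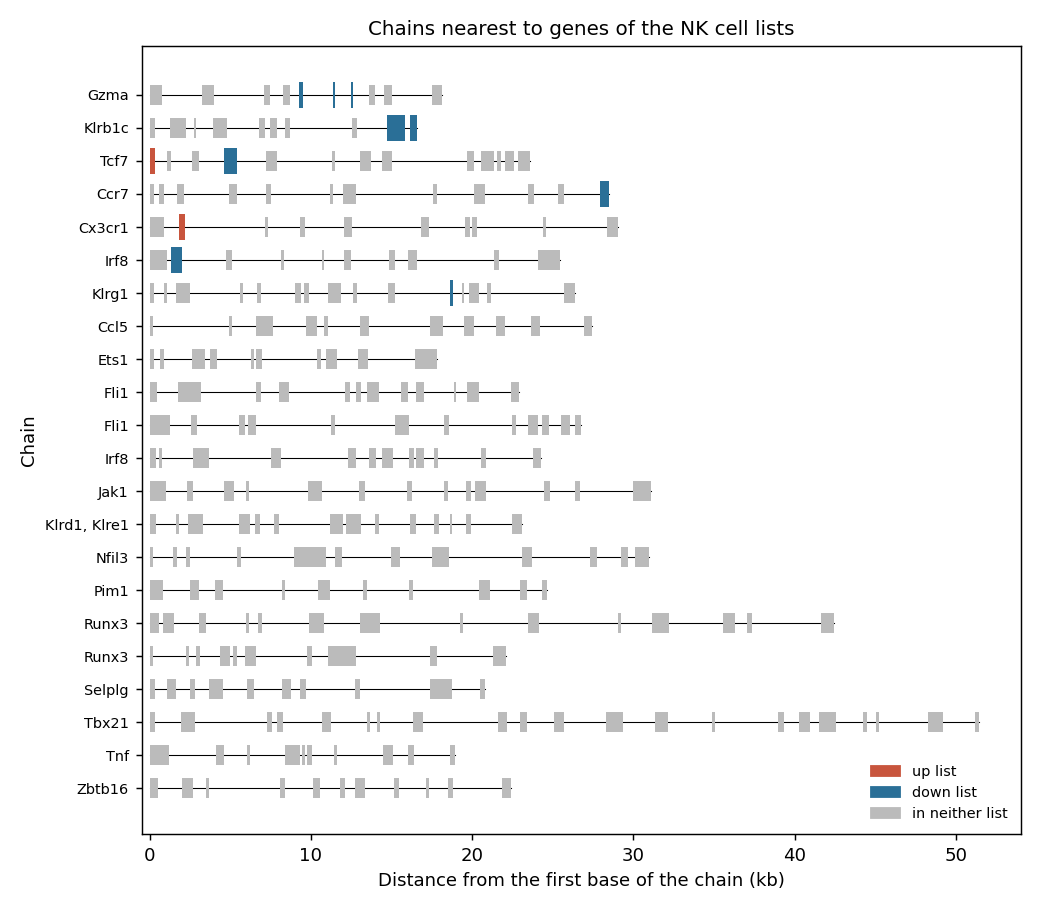
Maps of 22 of the 23 chains with at least 1 region nearest to a gene of the NK cell lists, by distance from the first base of the chain (kb) and labelled with those genes. Bars are regions (orange up, blue down, grey in neither list). Coloured bars appear in 7 rows, and 15 rows, among them Tbx21, Runx3, Ets1 and Jak1, are grey throughout.

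The chains also held 11 microRNA hairpins. The mature microRNAs below were chosen after their positions were seen, because miR-21 and miR-142 are abundant in lymphocytes. Their seeds, bases 2 to 8, are in capitals, and sequences are from RefSeq.

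miR-21a-5p: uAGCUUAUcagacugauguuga
miR-142a-5p: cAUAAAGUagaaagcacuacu
miR-142a-3p: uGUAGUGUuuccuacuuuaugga

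The hairpin of Mir21a lay in the Vmp1 chain of 13 regions, 1605 bp from the nearest member. That of Mir142 lay in the Tspoap1 chain of 11 regions, 73 bp from a member of 238 bp. Neither hairpin overlapped a region, and neither chain had a listed region. The 3 seeds differ from one another.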

How the data were processed

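ATAC-seq was performed on 4 samples, 2 per dose of IL-15. Per the submitters' processing notes, BWA, ArchR, MACS2 and HOMER 4.11.1 were used and the build was mm10. Their roles, whether samples were pooled for region calling, the differential test and its threshold are not given in the sources used here. The 3 deposited tables hold positions only, with 0 columns of values per sample, so depth and replicate spread are unknown and no call was retested here. A narrow or shallow region is less likely to be called, which can change both chains and lists.

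Starts of the full region list are 0-based and were raised by 1. Each listed region was then identical to a region of the full list. Regions were assigned to the nearest of 21887 protein-coding genes (RefSeq, GRCm38.p6) by distance to the gene's span. Region and gene positions were checked against each other: 10.1% of regions lay over a protein-coding start, against 0.682% and 0.686% after moving all starts by 100 kb. Exons, introns and UTRs were not annotated. Some genes and their chains are not reported here. The promoter table covers 20 chromosomes and held 178 of the 222 nearest genes. Shares carry 95% Wilson intervals, and floors are 3 counts.

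Chains were to be named if among the 5 with most regions, if among the 10 with most up or down regions and holding 3 or more, if holding both directions with 4 or more listed, or if a listed member was nearest to a gene of the lists. Members and lists were chosen with earlier results of these data known. Chaining, distances and intervals were tested on simulated regions. Analyses used Python 3.11.15, pandas 2.3.3, numpy 2.4.6 and matplotlib 3.10.9.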

Additional observations from a re-analysis of the deposited data

How the results depend on the processing

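No paired analysis was possible because replicate numbers appear in the labels but in no table. With positions only, no replicate could be left out and no stricter threshold set. For the 8 results recomputed, 75 alternatives were run, of which 38 stayed close to the reported value and 37 moved. Most that moved did so with the gap or size that defines a chain, which changes the members. The 38 are not all tests of stability. They include the restriction to autosomes, which could not change the members, because chromosomes X and Y had 0 of them. Close was also a wide limit where the reported value rested on few counts. Agreement within chains was 80.6% with a gap of at most 10000 bp. This was counted as close to the reported 92.3% (interval 66.7 to 98.6%). With a gap of at most 2500 bp, 0.023% of regions (21) were members, 0 were up or down, 0 chains and 0 genes of the lists had a listed region, and 19% were at a gene boundary. With 3500 bp, the values were 0.365% of regions, 0.3% up, 14.3% up among 7 listed, 100% agreement in the 1 chain with several listed regions, 16.1% of chains with a listed region and 1 gene of the lists. With 7500 bp, 8.27% of regions were members and 23 genes of the lists had a listed member. With 10000 bp, 16.6% of regions were members, 2.67% were up, 55% of listed members were up, 44.5% of chains had a listed region, 14.2% of members were at a boundary and 32 genes had a listed member. With chains of 8 or more regions, 4.43% of regions were members and 15 genes had a listed member. With 15 or more, 0.391% were members, 0.56% up and 1.4% down, 28.6% of 7 listed were up, agreement was 100% in 1 chain and 0 genes remained. With 20 or more, 0.115% were members, 0 were up or down, 0 chains and 0 genes had a listed region and 14.3% were at a boundary. Gaps of 2500 bp and chains of 20 or more gave no value for the up share of listed members or for agreement. Chains with 3 or more listed regions agreed in 100%, with 1 such chain. A boundary distance of 100 bp gave 5.95% and of 3000 bp 24.7% of members at a boundary. The up share of members stayed between 0 and 2.67% under each alternative, below that of all regions. With a gap of 2500 bp it rests on 21 members, too few to show a share below that of all regions. The down share was above that of all regions except with a gap of 2500 bp or chains of 20 or more, where it was 0, and with chains of 15 or more, where both were 1.4%. Up regions stayed at 55% or less of listed members wherever any was listed. Depth could not be judged.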
